A study of Homo sapiens with 16 samples.

Results

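TXNIP, the arrestin-domain genes ARRDC1, ARRDC2, ARRDC3 and ARRDC4, and the transcription factor genes MLXIP and MLX were followed in 2 human mammary cell lines treated with 2-deoxy-glucose (2DG). The genes were taken by symbol from the platform annotation, which gave 7 genes of the 19775 that could be tested and 18 probe sets of the 54675 on the array. Where a gene had several probe sets, the one with the highest mean over all arrays stands for the gene, and the others are given beside it. TXNIP, ARRDC2, ARRDC3 and ARRDC4 rose with 2DG in both lines, by between 1.025 and 3.26 on the log2 scale on their brightest probe sets. ARRDC1, MLXIP and MLX moved by less than 0.5 on these probe sets, and ARRDC1 and MLX had further probe sets that moved the other way. The further probe sets of TXNIP rose by up to 3.36.

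Each of the 16 samples was hybridised to an Affymetrix U133 Plus 2.0 array of its own, in 4 groups of 4. MDA-MB-231, a breast cancer line, received 50 mM 2DG or water as vehicle for 24 h, and so did MCF10A, an immortalized, non-tumorigenic mammary epithelial line. All cells grew in DMEM/F12 with 17.5 mM glucose and antibiotics, but the media differed otherwise: that of MDA-MB-231 held 2 mM glutamine and 10% fetal bovine serum, and that of MCF10A held 1 mM glutamine, 5% horse serum, hydrocortisone, cholera toxin, insulin and epidermal growth factor. Line and medium therefore cannot be told apart, and each kind of cell is represented by 1 line. The design text calls the samples independent biological replicates run in parallel, named A to D. The study asked how blocking glucose metabolism changes gene expression in mammary cells.

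TXNIP encodes thioredoxin-interacting protein, an alpha-arrestin that binds thioredoxin and lowers glucose uptake by drawing glucose transporters into the cell. The ARRDC proteins are its closest relatives; they share the arrestin fold and link membrane proteins to ubiquitin ligases through PPxY motifs. MLXIP encodes MondoA, a basic helix-loop-helix leucine zipper factor that pairs with MLX. Hexose phosphates, including the phosphate that hexokinase makes from 2DG, send this pair from the cytoplasm to the nucleus, where it binds carbohydrate response elements, and TXNIP and ARRDC4 are its best known targets. The activity of MondoA is known to be controlled largely by its location in the cell.

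The labelled lines were checked against markers. All 4 measured markers of MCF10A were high there: the keratin gene KRT5 averaged 6.72 in MDA-MB-231 and 13.0 in MCF10A on vehicle, and the cadherin gene CDH1 averaged 4.62 in MDA-MB-231 and 13.06 in MCF10A. Their summed log2 level lay between 21.83 and 24.77 over the MDA-MB-231 arrays and between 51.83 and 52.76 over the MCF10A arrays. Of 6 markers listed for MDA-MB-231, VIM, ZEB1, AXL and CDH11 were higher in that line, while SPARC and TGFBI were higher in MCF10A. Their sum ranged from 63.81 to 64.93 in MDA-MB-231 and from 62.84 to 64.32 in MCF10A. KRT17 and TP63 were not analysed here. The array medians lay between 6.17 and 6.22. The actin control ratio (log2 of 3' over 5' signal, larger when RNA is less intact) was 1.03 ± 0.0714 in MDA-MB-231 with 2DG and 0.597 ± 0.331 on vehicle, where replicate B stood at 1.09 (SD, n = 4 each). In MCF10A it was 0.55 ± 0.0678 with 2DG and 0.393 ± 0.067 on vehicle. The ratio moved with the treatment in both lines, and its part in the values below was not tested. Replicates of a group correlated at 0.996 to 0.998 over all probe sets.

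TXNIP rose in both lines. Its promoter, as RefSeq gives it on GRCh38.p14, lies on the minus strand at chr1:145996580-145996829, and is shown because it holds the carbohydrate response element through which MondoA is known to act. The 250 bases before the annotated start read 5' to 3' as follows, with capitals marking core sites of the form CACGNG or, on the other strand, CNCGTG.
TXNIP promoter: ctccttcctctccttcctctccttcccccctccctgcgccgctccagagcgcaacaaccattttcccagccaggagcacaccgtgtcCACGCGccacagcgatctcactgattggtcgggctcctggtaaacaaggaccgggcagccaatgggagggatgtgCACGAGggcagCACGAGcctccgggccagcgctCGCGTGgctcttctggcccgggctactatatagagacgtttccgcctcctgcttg
Of the 4 core sites, those at positions -88 and -77 stood 5 bases apart and formed the only spaced pair among the promoters of the 7 genes; positions are counted back from the start, with -1 for the base before it. The window of the other annotated TXNIP start held no core site. Such a pair was found in 27 of 35116 promoter windows of 300 bases (0.0769%), and any core site in 10705 of them (30.5%). The form of the pair was chosen with the known element of TXNIP in mind, so its presence there is no independent observation.

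The brightest TXNIP probe set, 201010_s_at, gave 14.31, 14.26, 14.35 and 14.32 in MDA-MB-231 with 2DG and 12.41, 12.42, 12.43 and 12.45 on vehicle (log2 values, replicates A to D). In MCF10A it gave 14.19, 14.20, 14.18 and 14.19 with 2DG and 11.57, 11.56, 11.59 and 11.67 on vehicle. Every 2DG array stood above every vehicle array, and no group overlapped another. The rise was 1.88 ± 0.0329 in MDA-MB-231 (SE of the limma fit; 95% confidence interval 1.81 to 1.95; 3.69-fold; adjusted p = 5.309e-16) and 2.59 ± 0.0329 in MCF10A (2.52 to 2.66; 6.03-fold; adjusted p = 2.077e-18). Ranked among all genes that went up, this was rank 103 in MDA-MB-231 and rank 89 in MCF10A.

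On vehicle TXNIP was higher in MDA-MB-231 than in MCF10A by 0.83 (adjusted p = 1.204e-12), and with 2DG by 0.12 (0.05 to 0.19; adjusted p = 0.004611). The response was smaller in MDA-MB-231 by 0.71 ± 0.0466 (a difference of -0.71, interval -0.81 to -0.61; adjusted p = 2.286e-09). The levels thus ran from MDA-MB-231 with 2DG over MCF10A with 2DG and MDA-MB-231 vehicle to MCF10A vehicle, with neighbours apart at each step. The treated values lay near the top of the scale: the highest value of the whole table was 15.15, and this probe set was on average brighter than 99.1% of all probe sets.

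Both dimmer TXNIP probe sets gave larger rises. Probe set 201009_s_at read 13.77, 13.81, 13.81 and 13.78 with 2DG and 11.02, 10.87, 11.07 and 10.88 on vehicle in MDA-MB-231, a rise of 2.83 ± 0.0518 (adjusted p = 6.687e-16). In MCF10A it read 13.40, 13.37, 13.45 and 13.30 with 2DG and 10.06, 10.12, 10.16 and 10.03 on vehicle, a rise of 3.29 (adjusted p = 1.821e-17). The treated and vehicle arrays of each line stood far apart here too, and the response was again smaller in MDA-MB-231, by a difference of -0.455 (adjusted p = 7.1e-05). Between the lines with 2DG, MDA-MB-231 was higher by 0.4125 on this probe set (adjusted p = 2.312e-06), beside 0.12 on the brightest (adjusted p = 0.01053 when all probe sets were fitted).

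The dimmest TXNIP probe set, 201008_s_at, read 13.40, 13.46, 13.31 and 13.46 with 2DG and 10.88, 9.69, 10.73 and 10.52 on vehicle in MDA-MB-231, a rise of 2.95 ± 0.176 (adjusted p = 2.929e-10). In MCF10A it read 12.87, 13.00, 13.04 and 12.89 with 2DG and 9.70, 9.68, 9.58 and 9.41 on vehicle, a rise of 3.36 (adjusted p = 4.336e-11). The low vehicle value of 9.69 came from replicate B, the vehicle array with the actin ratio of 1.09. With it, the difference of responses was -0.405 (adjusted p = 0.2252). Without it, the rise in MDA-MB-231 was 2.70 and the difference -0.66 (adjusted p = 0.0002276). The actin ratio was 0.97 to 1.13 in the 2DG arrays of MDA-MB-231 and 0.38, 0.45 and 0.47 in vehicle replicates A, C and D. Leaving out replicate B thus removed the only vehicle array with a ratio like the treated ones. The part of the ratio in these values was not tested. With 2DG, MDA-MB-231 stood above MCF10A by 0.4575 here (adjusted p = 0.03572). All 3 probe sets of TXNIP can match several transcripts, as their suffix _s_at states, so no value from an unshared probe set was obtained for this gene.

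**Figure D1:**
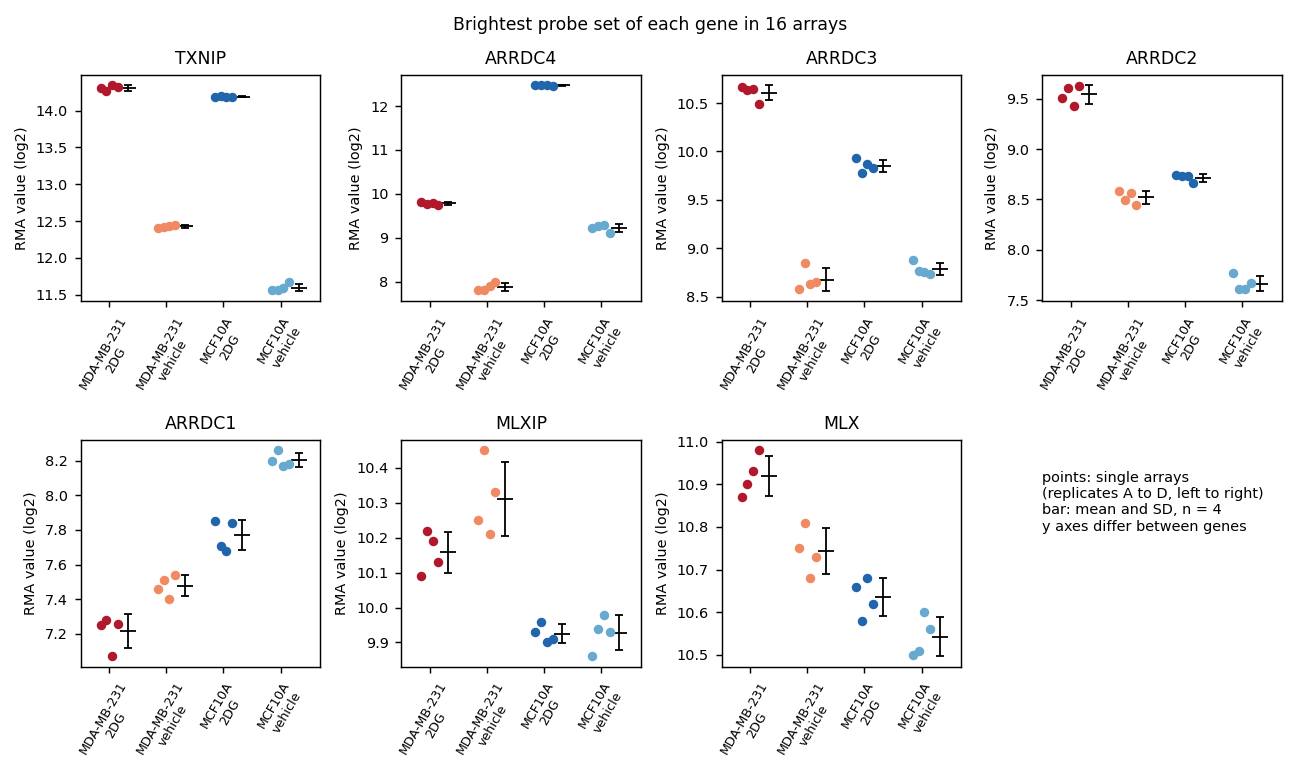
RMA values (log2) of the brightest probe set of each of the 7 genes in every array, by group, with the mean and SD of the 4 replicates as bars; the y axes differ between genes. TXNIP, ARRDC4, ARRDC3 and ARRDC2 stand higher with 2DG than on vehicle in both lines with no overlap, ARRDC1 stands lower, and MLXIP and MLX move by less than 0.2.

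ARRDC4, the relative of TXNIP that is likewise known to lower glucose uptake, also rose in both lines. Its promoter is shown beside that of TXNIP because ARRDC4 is the other established MondoA target. It lies on the plus strand at chr15:97960453-97960702 (RefSeq, GRCh38.p14), and the 250 bases before the start are given 5' to 3' with core sites in capitals.
ARRDC4 promoter: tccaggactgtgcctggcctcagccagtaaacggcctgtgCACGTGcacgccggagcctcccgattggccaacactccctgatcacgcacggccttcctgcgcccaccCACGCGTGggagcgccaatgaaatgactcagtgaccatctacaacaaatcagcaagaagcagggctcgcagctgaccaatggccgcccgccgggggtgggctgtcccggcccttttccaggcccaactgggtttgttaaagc
The window held an E-box, CACGTG, at -210, which also counts as a core site, and overlapping core sites at -142 and -140. It held no spaced pair of the form searched. E-boxes were found in 2548 of the 35116 windows (7.26%). A match is a stretch of letters and not a measured binding site.

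The only ARRDC4 probe set, 225283_at, gave 9.82, 9.77, 9.79 and 9.75 in MDA-MB-231 with 2DG and 7.80, 7.80, 7.91 and 8.0 on vehicle. The MCF10A arrays gave 12.48, 12.48, 12.48 and 12.46 with 2DG and 9.21, 9.26, 9.30 and 9.10 on vehicle. No group overlapped another, and the treated MCF10A arrays stood highest. The rise was 1.905 ± 0.0493 in MDA-MB-231 (3.75-fold; adjusted p = 1.849e-14; rank 95 among genes that went up) and 3.26 ± 0.0493 in MCF10A (9.56-fold; adjusted p = 1.203e-17; rank 36).

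Unlike TXNIP, ARRDC4 was lower in MDA-MB-231 than in MCF10A in both conditions, by -1.34 on vehicle (adjusted p = 4.614e-13) and by -2.69 with 2DG (adjusted p = 4.48e-17). The response was smaller in MDA-MB-231, with a difference of -1.35 ± 0.0697 (adjusted p = 1.283e-10). The order of levels was MCF10A with 2DG, MDA-MB-231 with 2DG, MCF10A vehicle and MDA-MB-231 vehicle, and no neighbours overlapped.

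Whether ARRDC4 and TXNIP moved by unequal amounts was tested on the difference of their log2 values within each array. In MDA-MB-231 this difference was -4.53 ± 0.0435 with 2DG and -4.55 ± 0.0804 on vehicle (SD, n = 4 each), and the groups overlapped (change 0.0225; exact permutation test, two-sided, p = 0.6286, adjusted over both lines 0.6286). In MCF10A it was -1.715 ± 0.0129 with 2DG and -2.38 ± 0.13 on vehicle, with no overlap (change 0.665; exact p = 0.02857, the smallest that the 70 arrangements allow; adjusted 0.05714, which did not pass). The result depended on the TXNIP probe sets: with the mean of all 3, the change was -0.6508 in MDA-MB-231 and 0.1783 in MCF10A (adjusted exact p = 0.02857 for both), so that in MDA-MB-231 TXNIP then rose by more than ARRDC4. That mean still holds 201010_s_at, whose treated values lay near the top of the scale. In MCF10A the other TXNIP probe sets rose by 3.29 and 3.36, beside 3.26 for ARRDC4, so the larger rise measured for ARRDC4 there rests on 201010_s_at. In MDA-MB-231 the 3 TXNIP probe sets rose by 1.88, 2.83 and 2.95, beside 1.905 for ARRDC4. Since probe sets of 1 gene differed this much, the test cannot decide which gene rose more.

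**Figure D2:**
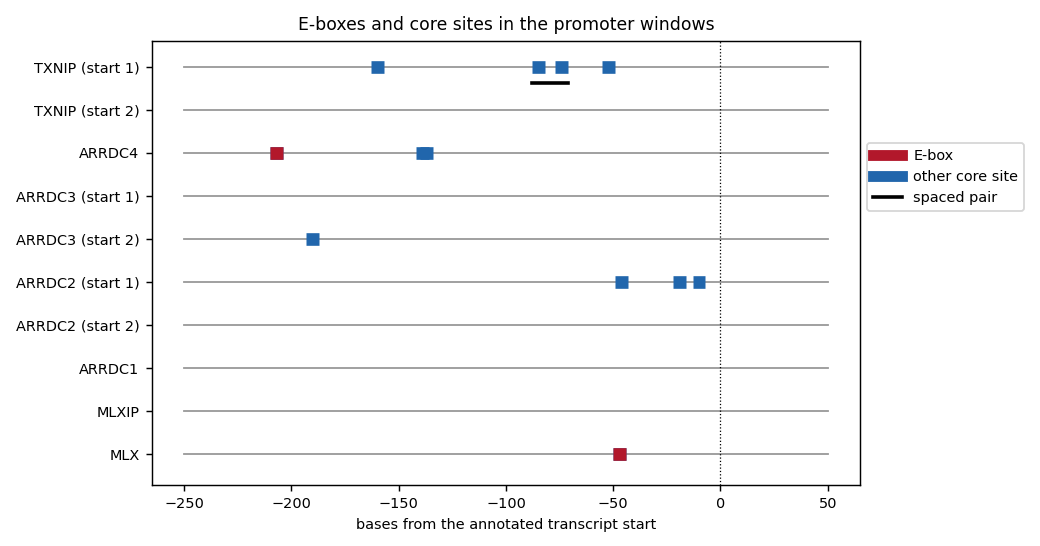
E-boxes (red), other core sites (blue) and the spaced pair (black bar) in the RefSeq promoter windows of the 7 genes, by distance in bases from the annotated transcript start; genes with 2 annotated starts have 2 rows. TXNIP start 1 holds 4 core sites and the spaced pair, ARRDC4 and MLX hold 1 E-box each, and the windows of ARRDC1 and MLXIP hold none of these motifs.

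ARRDC3, an alpha-arrestin known for guiding the integrin chain encoded by ITGB4 to ubiquitination, rose in both lines and by more in MDA-MB-231. Its only probe set, 224797_at, gave 10.67, 10.63, 10.64 and 10.49 in MDA-MB-231 with 2DG and 8.58, 8.85, 8.63 and 8.65 on vehicle. In MCF10A it gave 9.93, 9.78, 9.87 and 9.83 with 2DG and 8.88, 8.77, 8.76 and 8.74 on vehicle. Of the 4 vehicle arrays of MDA-MB-231, replicate B lay within the range of MCF10A vehicle and the other 3 below it, whereas both treated groups stood above all vehicle arrays and apart from each other. The rise was 1.93 ± 0.059 in MDA-MB-231 (3.81-fold; adjusted p = 1.198e-13; rank 87) and 1.065 ± 0.059 in MCF10A (2.09-fold; adjusted p = 9.525e-11).

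The difference of ARRDC3 responses was 0.865 ± 0.0834 (0.69 to 1.04; adjusted p = 2.197e-07), of the opposite sign to those of TXNIP and ARRDC4. MDA-MB-231 minus MCF10A was 0.755 with 2DG (adjusted p = 5.946e-09) and -0.11 on vehicle (-0.24 to 0.02; adjusted p = 0.1315). The vehicle value rested on replicate B of MDA-MB-231, the highest of its group at 8.85: without it, the difference on vehicle was -0.1675 (adjusted p = 0.01116). Of the 2 annotated starts of ARRDC3, 1 window held no core site and the other held 1, at -193.

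ARRDC2, a less studied member of the family, rose by like amounts in both lines. Its only probe set, 226055_at, gave 9.51, 9.61, 9.43 and 9.63 in MDA-MB-231 with 2DG and 8.58, 8.49, 8.56 and 8.45 on vehicle. The MCF10A arrays had 8.74, 8.73, 8.73 and 8.66 with 2DG and 7.77, 7.61, 7.61 and 7.67 on vehicle. No group overlapped another, and within each condition MDA-MB-231 was the higher line. The rise was 1.025 ± 0.0508 in MDA-MB-231 (2.03-fold; adjusted p = 3.368e-11) and 1.05 ± 0.0508 in MCF10A (2.07-fold; adjusted p = 1.665e-11). The difference of responses was -0.025, and its interval reached from -0.18 to 0.13 (adjusted p = 0.8228). MDA-MB-231 exceeded MCF10A by 0.83 with 2DG (adjusted p = 2.399e-10) and by 0.855 on vehicle (adjusted p = 2.224e-10). The window of 1 annotated ARRDC2 start held 3 core sites, at -49, -22 and -13, and the other window held none.

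ARRDC1, which recruits the sorting protein TSG101 to the plasma membrane and drives the budding of microvesicles, fell in both lines on its brightest probe set. Probe set 226405_s_at gave 7.25, 7.28, 7.07 and 7.26 in MDA-MB-231 with 2DG and 7.46, 7.51, 7.40 and 7.54 on vehicle. In MCF10A it gave 7.85, 7.71, 7.68 and 7.84 with 2DG and 8.20, 8.26, 8.17 and 8.18 on vehicle. The treated arrays lay below the vehicle arrays in each line without overlap, and all MDA-MB-231 arrays lay below all MCF10A arrays. The change was -0.2625 ± 0.0538 in MDA-MB-231 (adjusted p = 0.0005283) and -0.4325 ± 0.0538 in MCF10A (adjusted p = 2.516e-06). The difference of responses was 0.17 (0.01 to 0.33; adjusted p = 0.08347). MDA-MB-231 minus MCF10A was -0.555 with 2DG (adjusted p = 9.507e-08) and -0.725 on vehicle (adjusted p = 3.936e-09).

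The other ARRDC1 probe set, 234607_at, moved the other way. It read 5.94, 6.06, 5.93 and 6.18 with 2DG and 5.85, 5.65, 5.78 and 5.72 on vehicle in MDA-MB-231 (0.2775; adjusted p = 0.004578), and 6.06, 6.12, 6.17 and 6.21 with 2DG and 5.77, 5.74, 5.99 and 6.02 on vehicle in MCF10A (0.26; adjusted p = 0.006805). The treated arrays were higher in both lines, without overlap. Between the lines this probe set passed the test in neither condition, at -0.1125 with 2DG (adjusted p = 0.2167) and -0.13 on vehicle (adjusted p = 0.161). Its values lay below the median of all probe set values, 6.19, on all but 1 array. The direction of ARRDC1 therefore depends on the probe set, and the mean of both gave 0.0075 in MDA-MB-231 and -0.0862 in MCF10A, neither of which passed the test.

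MLXIP, the gene of MondoA, hardly moved. Its brightest probe set, 202519_at, gave 10.09, 10.22, 10.19 and 10.13 in MDA-MB-231 with 2DG and 10.25, 10.45, 10.21 and 10.33 on vehicle. MCF10A arrays had 9.93, 9.96, 9.90 and 9.91 with 2DG and 9.86, 9.94, 9.98 and 9.93 on vehicle. The treated and vehicle arrays overlapped in each line, and the 2 lines stood apart. The change was -0.1525 ± 0.0492 in MDA-MB-231, which passed the test (adjusted p = 0.01598) but not without vehicle replicate B (-0.1058; adjusted p = 0.0539) or without 2DG replicate A (-0.13; adjusted p = 0.05446). In MCF10A it was -0.0025, with an interval from -0.11 to 0.10 (adjusted p = 0.9724). The difference of responses was -0.15 (adjusted p = 0.09543). MDA-MB-231 was above MCF10A by 0.2325 with 2DG (adjusted p = 0.0005698) and by 0.3825 on vehicle (adjusted p = 3.572e-06). Of the 3 other probe sets of MLXIP, 225157_at changed by -0.0325 in MDA-MB-231 and -0.05 in MCF10A, and 211789_s_at and 1554886_a_at were dim, with group means between 4.43 and 5.12; none of the 3 passed the test for 2DG in either line.

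MLX, the partner of MondoA, rose slightly in MDA-MB-231 on its brightest probe set. Probe set 213708_s_at gave 10.87, 10.90, 10.93 and 10.98 in MDA-MB-231 with 2DG and 10.75, 10.81, 10.68 and 10.73 on vehicle. Those of MCF10A gave 10.66, 10.58, 10.68 and 10.62 with 2DG and 10.50, 10.51, 10.60 and 10.56 on vehicle. The treated MDA-MB-231 arrays stood above all others, and the other 3 groups overlapped their neighbours in the order of levels. The change was 0.1775 ± 0.0397 in MDA-MB-231 (adjusted p = 0.001138) and 0.0925 ± 0.0397 in MCF10A (0.01 to 0.18; adjusted p = 0.06124), and the difference of responses was 0.085 (adjusted p = 0.2532). MDA-MB-231 was above MCF10A by 0.285 with 2DG (adjusted p = 7.656e-06) and by 0.2 on vehicle (adjusted p = 0.0003423).

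The 6 probe sets of MLX did not move as 1. Probe set 217910_x_at rose by 0.2075 in MDA-MB-231 (adjusted p = 0.0005107) and by 0.1075 in MCF10A (adjusted p = 0.04363). Against this, 217909_s_at changed by -0.33 in MDA-MB-231 (adjusted p = 0.0008043) and -0.58 in MCF10A (adjusted p = 1.983e-06), and 210752_s_at by -0.865 in MDA-MB-231 (adjusted p = 2.775e-08) and -0.44 in MCF10A (adjusted p = 7.071e-05). The dim probe sets 1570347_at and 231401_s_at did not pass the test in either line. The mean of all 6 gave -0.1375 in MDA-MB-231 (adjusted p = 0.008437), so no direction can be given for the gene as a whole. Between the lines, 217910_x_at and 217909_s_at were called higher in MDA-MB-231 in both conditions. Probe set 210752_s_at was higher there by 0.4675 on vehicle (limma, adjusted p = 3.666e-05) but by 0.0425 with 2DG (adjusted p = 0.6631). Likewise, 1570347_at was called higher on vehicle only, and 231401_s_at was called in neither condition. The MLX window held an E-box at -50.

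**Figure D3:**
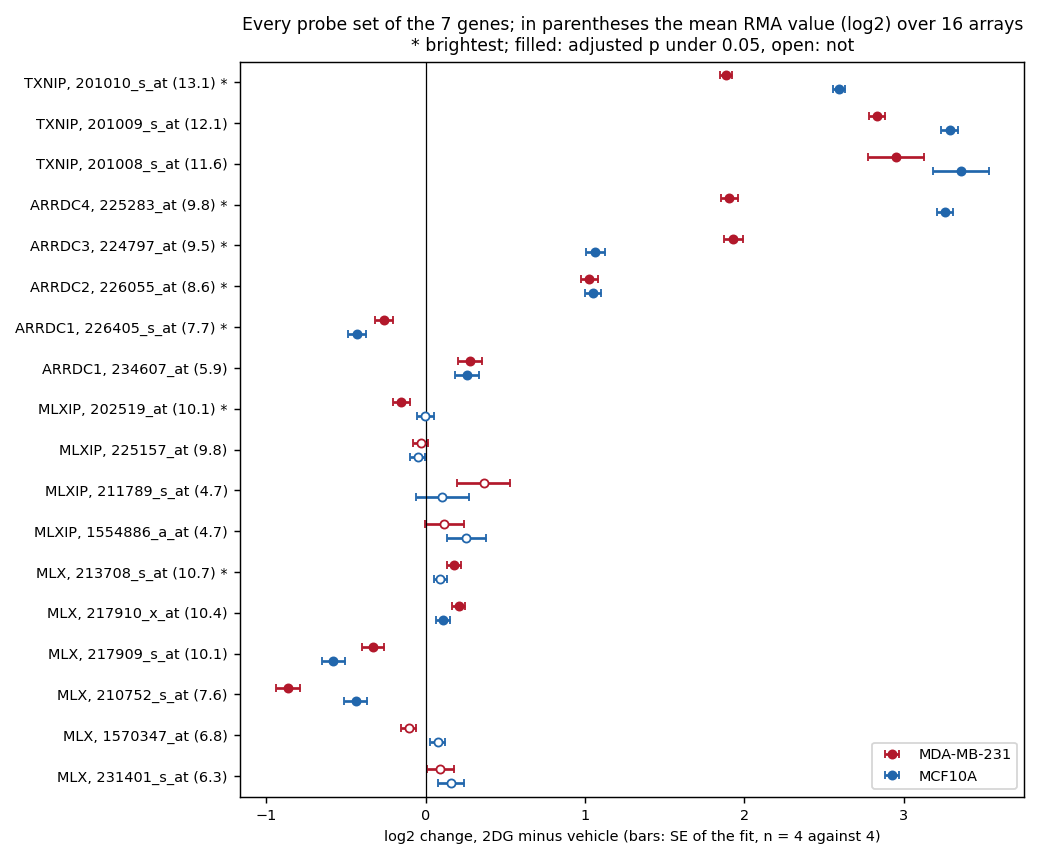
Change of every probe set of the 7 genes with 2DG (log2, 2DG minus vehicle) in MDA-MB-231 (red) and MCF10A (blue), with the SE of the fit as bars; filled points passed the test, and the mean level over 16 arrays stands in parentheses. The 3 TXNIP probe sets all lie between 1.88 and 3.36, whereas ARRDC1 and MLX have probe sets on both sides of 0.

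Counted together on the brightest probe sets, 5 of the 7 genes passed the test upward in MDA-MB-231 (TXNIP, ARRDC2, ARRDC3, ARRDC4 and MLX). Another 2 passed it downward (ARRDC1 and MLXIP), where 25.5% of all genes tested were called higher and 25.4% lower. In MCF10A, 4 rose (TXNIP, ARRDC2, ARRDC3 and ARRDC4), ARRDC1 fell, and MLXIP and MLX were not called, where 29.0% of all genes were called higher and 25.2% lower. The calls of ARRDC1 and MLX hold for these probe sets only. Probe set 234607_at of ARRDC1 was called higher in both lines, and the mean of its probe sets was called in neither. Without vehicle replicate B of MDA-MB-231, MLXIP lost its call and 1 gene remained lower in that line. Because so many genes were called, sizes are given beside the counts. The median change of the 7 genes was 1.025 in MDA-MB-231, where that of all genes was 0.0275, and 1.05 in MCF10A, where that of all genes was 0.0225. The share of all genes that rose at least as far was 0.521% for TXNIP, 0.48% for ARRDC4, 0.44% for ARRDC3 and 2.9% for ARRDC2 in MDA-MB-231. In MCF10A it was 0.45% for TXNIP, 0.182% for ARRDC4, 4.83% for ARRDC3 and 4.94% for ARRDC2. Since the array measures RNA of whole cultures, a change in the share of cells that express a gene and a change per cell cannot be told apart.

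The difference of responses was called higher for 1 of the 7 genes (ARRDC3) and lower for 2 (TXNIP and ARRDC4), with 22.3% and 23.6% of all genes called in these directions. On vehicle, MDA-MB-231 was called higher than MCF10A for TXNIP, ARRDC2, MLXIP and MLX (29.2% of all genes) and lower for ARRDC1 and ARRDC4 (26.8%). With 2DG it was called higher for TXNIP, ARRDC2, ARRDC3, MLXIP and MLX (30.7%) and lower for ARRDC1 and ARRDC4 (28.8%). With 7 genes, nothing particular to them is read from these counts. By these calls, the direction between the lines was thus the same in both conditions for the 6 genes called on vehicle. ARRDC3 was called with 2DG only, and the test of that change is the difference of responses given for it above. All these calls rest on the brightest probe sets. Other probe sets of ARRDC1, MLXIP and MLX were not all called between the lines.

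**Figure D4:**
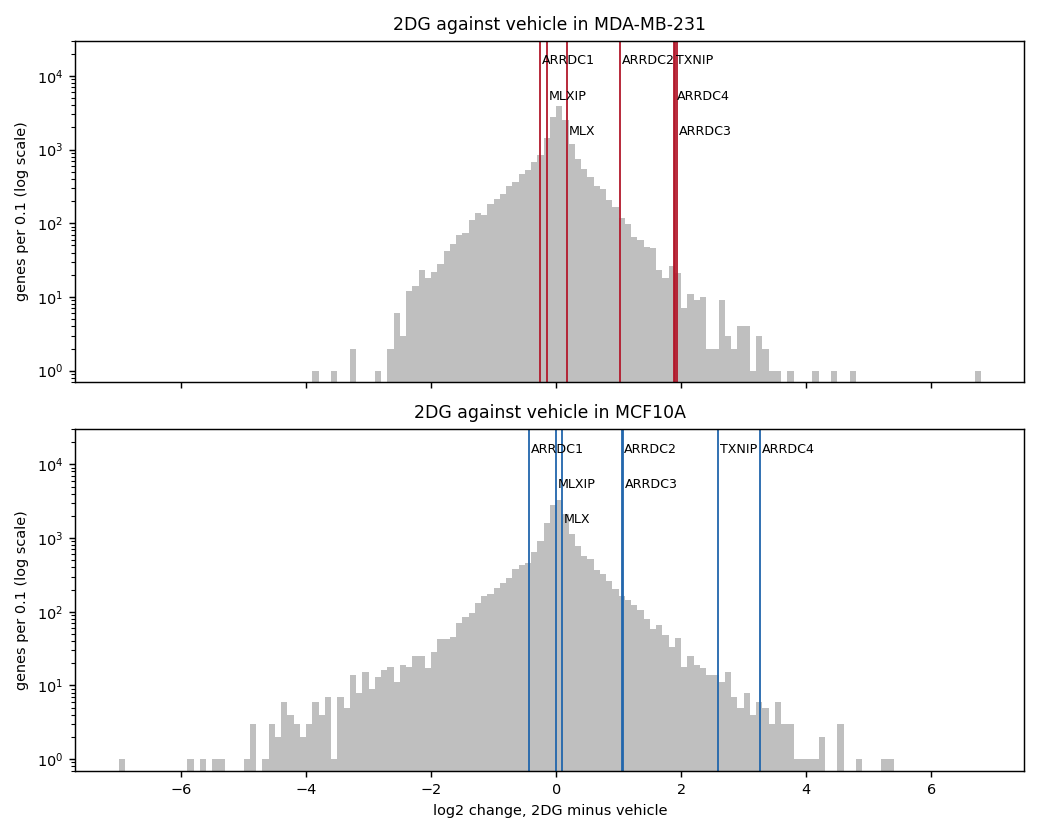
Number of genes by change with 2DG (log2, bins of 0.1, log scale) among the 19775 genes tested, in MDA-MB-231 above and MCF10A below, with lines at the 7 genes. TXNIP, ARRDC4 and ARRDC3 lie together near 1.9 in MDA-MB-231, whereas in MCF10A ARRDC4 (3.26) and TXNIP (2.59) lie beyond ARRDC2 and ARRDC3 near 1.

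The genes with patterns most like TXNIP and ARRDC4 were found by Pearson's r of log2 values over the 16 arrays, among the 6284 genes whose group means spanned at least 1. These r describe 16 arrays in 4 groups and carry no test. The closest to TXNIP were MAP3K2, a kinase of the MAP kinase cascades (0.998), KLF4, a transcription factor (0.998), WARS1, the cytoplasmic tryptophanyl-tRNA synthetase (0.997), SLC1A4, a neutral amino acid transporter (0.996), and HINFP, a histone gene transcription factor (0.996). KLF4, for example, averaged 12.83 with 2DG and 10.79 on vehicle in MDA-MB-231, and 12.61 with 2DG and 9.83 on vehicle in MCF10A. The closest to ARRDC4 were LURAP1L (0.997), SMAD2, a mediator of TGF-beta signalling (0.996), GLUL, glutamine synthetase (0.996), LOC100996740 (0.996, as the annotation names it) and ZNF862 (0.995). LURAP1L averaged 8.50 with 2DG and 6.48 on vehicle in MDA-MB-231, and 11.34 with 2DG and 8.18 on vehicle in MCF10A. No gene stood on both lists.

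Among the brightest probe sets of the 7 genes themselves, r with TXNIP was 0.9047 for ARRDC3, 0.8766 for ARRDC2, 0.6526 for ARRDC4, 0.5943 for MLX, -9e-04 for MLXIP and -0.6463 for ARRDC1. ARRDC1 and MLX had other probe sets that moved the other way with 2DG, whose r was not computed. ARRDC4 held rank 958 of 6284 in likeness to TXNIP. The levels in the lines ran opposite ways for these 2 genes, TXNIP being higher and ARRDC4 lower in MDA-MB-231.

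The wider pathway was read from a list of 50 genes in 7 roles, of which 45 were measured. The others, MXD4, ARRDC5, ARRB2 and PDCD6IP among them, were not analysed here. In MDA-MB-231, 23 of the 45 rose, 13 fell and 9 were not called (median change 0.1275). In MCF10A, 19 rose, 15 fell and 11 were not called (median 0.055). Of all genes tested, 25.5% were called higher in MDA-MB-231 and 29.0% in MCF10A, with median changes of 0.0275 and 0.0225. Nothing particular to the list or to its roles is read from the counts. Up to 3 genes per role are named, those with the largest change in either line.

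Of 9 measured partners of MLX and MAX in the MYC network, 6 rose and 1 fell in MDA-MB-231, where 25.5% of all genes were called higher and 25.4% lower. In MCF10A 4 rose and 3 fell, where 29.0% were called higher and 25.2% lower. MXD1, a MAX partner that represses transcription, rose by 3.06 in MDA-MB-231 (adjusted p = 1.484e-17) and by 1.2 in MCF10A (adjusted p = 1.208e-13), where 1 of its 2 other probe sets was called in the opposite direction. MXI1, another such repressor, rose by 0.11 in MDA-MB-231 and by 1.6 in MCF10A (adjusted p = 1.755e-15), and the difference of its responses was -1.49 (adjusted p = 1.584e-12). MNT, which can pair with MLX as well as MAX, rose by 0.1625 in MDA-MB-231 and by 0.8825 in MCF10A.

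Other genes known as targets of MondoA or its relative ChREBP moved in both directions. Of 7 measured, 3 rose and 2 fell in MDA-MB-231 (all genes: 25.5% higher, 25.4% lower). In MCF10A 1 rose and 4 fell (all genes: 29.0% higher, 25.2% lower). KLF10, a zinc finger factor, rose by 1.09 in MDA-MB-231 and by 1.05 in MCF10A (adjusted p at most 3.678e-11). HK2, a hexokinase that phosphorylates glucose and 2DG, changed by -0.6225 in MDA-MB-231 (adjusted p = 7.306e-08) and -2.285 in MCF10A (adjusted p = 4.532e-15). PFKFB3, an enzyme that stimulates glycolysis, changed by 0.8625 in MDA-MB-231 and -0.4075 in MCF10A, and the difference was 1.27 (adjusted p = 1.468e-11).

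In the thioredoxin system, 2 of 6 genes rose and 3 fell in MDA-MB-231 (all genes: 25.5% higher, 25.4% lower). In MCF10A 1 rose and 4 fell (all genes: 29.0% higher, 25.2% lower). On the mean of all probe sets, the falls in MCF10A numbered 2. TXNRD1, the cytosolic thioredoxin reductase, rose by 1.14 in MDA-MB-231 (adjusted p = 1.716e-13) and by 1.52 in MCF10A (adjusted p = 2.514e-15). The genes of a mitochondrial peroxiredoxin (PRDX3) and of mitochondrial thioredoxin (TXN2) fell in both lines. PRDX3 changed by -0.565 in MDA-MB-231 and -0.73 in MCF10A, and TXN2 by -0.43 in MDA-MB-231 and -0.13 in MCF10A. TXN, the cytosolic thioredoxin that TXNIP binds, is named for that role and not by its change, which was 0.0025 in MDA-MB-231 (-0.06 to 0.06) and 0.025 in MCF10A (-0.04 to 0.09).

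Of the 3 other arrestins, 1 rose and 2 fell in MDA-MB-231 (all genes: 25.5% higher, 25.4% lower). In MCF10A 2 rose (all genes: 29.0% higher), while on the mean of all probe sets 1 fell in each line. ARRB1, a beta-arrestin of receptor signalling, rose by 1.46 in MDA-MB-231 (adjusted p = 6.391e-12), where 3 of its 6 other probe sets were called in the opposite direction, and by 1.34 in MCF10A (adjusted p = 1.15e-11), where none was. VPS26B, an arrestin-fold subunit of the retromer, changed by -0.5775 in MDA-MB-231 and -0.035 in MCF10A. VPS26A, its close relative, changed by -0.13 in MDA-MB-231 and 0.17 in MCF10A, and its other probe set was called upward in MDA-MB-231.

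The ubiquitin ligases that bind PPxY motifs rose in 7 of 8 cases and fell in 1 in MDA-MB-231 (all genes: 25.5% higher, 25.4% lower). In MCF10A 4 rose and 1 fell (all genes: 29.0% higher, 25.2% lower). On the mean of all probe sets the rises numbered 4 in MDA-MB-231 and 2 in MCF10A and the falls 2 in each line, and without vehicle replicate B no fall was called in MDA-MB-231. HECW2, a ligase of the NEDD4 family, rose by 0.7975 in MDA-MB-231 (adjusted p = 2.62e-05) and by 1.96 in MCF10A (adjusted p = 3.718e-10). Its mean in MCF10A vehicle was 5.605, below the median of all probe set values, 6.19. ITCH, a ligase reported to act on TXNIP, rose by 1.39 in MDA-MB-231 (adjusted p = 4.01e-12) and by 0.685 in MCF10A (adjusted p = 2.057e-08), and NEDD4L, known for controlling ion channels, by 1.12 in MDA-MB-231 (adjusted p = 1.266e-13) and 0.9875 in MCF10A (adjusted p = 2.569e-13). In each line, 3 of the 5 other probe sets of ITCH and 2 of the 5 of NEDD4L were called in the opposite direction.

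AMPK, the energy-sensing kinase known to phosphorylate TXNIP, differed by subunit. Of its 6 subunit genes, 1 rose and 2 fell in MDA-MB-231 (all genes: 25.5% higher, 25.4% lower). In MCF10A 4 rose and 2 fell (all genes: 29.0% higher, 25.2% lower). The single rise in MDA-MB-231 became 3 without vehicle replicate B and 2 on the mean of all probe sets, which left 1 fall. PRKAB2, a scaffold subunit, changed by -0.43 in MDA-MB-231, where 1 of its 2 other probe sets was called upward, and by 1.405 in MCF10A, and the difference was -1.835 (adjusted p = 6.684e-14). The catalytic subunit gene PRKAA2 changed by 0.2 in MDA-MB-231 (adjusted p = 0.2295), where 1 of its 4 other probe sets was called downward, and by 1.15 in MCF10A (adjusted p = 8.549e-07). Its mean in MCF10A vehicle was 5.3125, below the median of all probe set values, 6.19. The other catalytic subunit gene, PRKAA1, changed by -0.945 in MDA-MB-231, where 2 of its 4 other probe sets were called upward, and by -0.7775 in MCF10A.

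Among cargo and partners of the alpha-arrestins, 3 of 6 rose and 2 fell in MDA-MB-231 (all genes: 25.5% higher, 25.4% lower). In MCF10A 3 rose and 1 fell (all genes: 29.0% higher, 25.2% lower). Without vehicle replicate B, 1 fall was called in MDA-MB-231, and none on the mean of all probe sets. NLRP3, an inflammasome receptor to which TXNIP has been reported to bind, changed by 0.54 in MDA-MB-231 and -2.06 in MCF10A, and the difference was 2.6 (adjusted p = 4.424e-10). Its mean in MCF10A with 2DG was 4.86, below the median of all probe set values, 6.19. DDIT4, a stress-induced inhibitor of mTORC1 signalling that forms a complex with TXNIP, rose by 1.92 in MDA-MB-231 and by 0.42 in MCF10A, with a difference of 1.4975 (adjusted p = 1.85e-11). TSG101, the partner of ARRDC1, rose by 0.26 in MDA-MB-231 and by 0.485 in MCF10A. SLC2A1, the glucose transporter whose removal from the membrane TXNIP promotes, is named for that role: it changed by -0.345 in MDA-MB-231 (adjusted p = 5.88e-07) and 0.1575 in MCF10A (adjusted p = 0.001747).

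**Figure D5:**
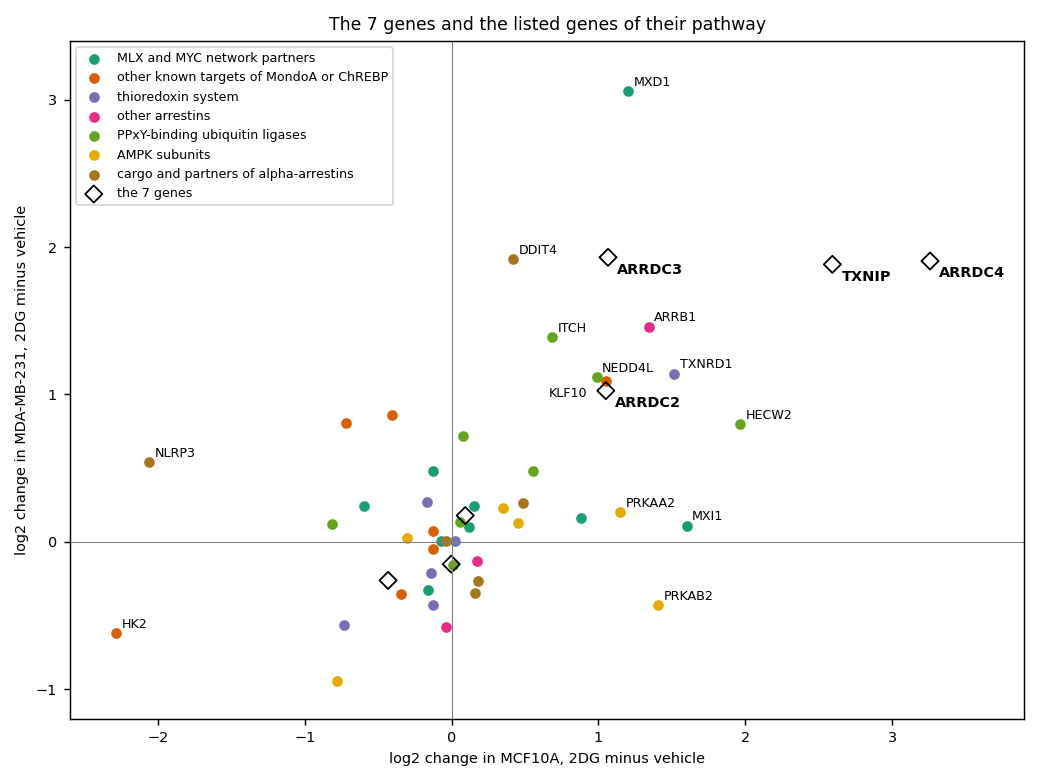
Change with 2DG (log2, 2DG minus vehicle) in MDA-MB-231 on the y axis against MCF10A on the x axis for the 45 measured genes of the pathway list, coloured by role, and for the 7 genes as open diamonds; names mark genes that moved by at least 1 in either line. MXD1 stands highest in MDA-MB-231 at 3.06, ARRDC4 farthest right in MCF10A at 3.26, and HK2 and NLRP3 farthest left at -2.285 and -2.06.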

How the data were processed

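The authors deposited 1 log2 value per probe set and array, made with RMA (robust multi-array average) per the submitters' processing notes; its version was not given in the sources used here. RNA was extracted with Trizol, treated with DNase and labelled from the 3' end by in vitro transcription, per the protocols in the labels. RMA carries no detection call and compresses low signals, and the number of arrays limits the precision.

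Gene names came from GEO's annotation of the platform: 41091 of 54675 had 1 gene, 1801 had several, and 11721 other than the 62 controls were not listed there and stayed unnamed. Entrez numbers of 41037 were found in RefSeq (GRCh38.p14), which changed no symbol. The brightest probe set stood for each of 19775 genes. The fit (limma 3.58.1, R 4.3.3, lmFit and eBayes) had 4 group means and 12 residual degrees of freedom. Tests were two-sided, p-values were adjusted by Benjamini-Hochberg over all genes, and a call needed an adjusted value under 0.05. Further probe sets were adjusted over all 41091. No filter was applied. On simulated data the fit was checked for recovery of known changes.

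The 7 genes, the pathway and marker lists and the motifs were chosen with earlier results of these data known. Named genes were the 7, the 5 most like TXNIP and the 5 most like ARRDC4, and up to 3 per role of the pathway list; TXN and SLC2A1 were added for their role. Motifs were searched on both strands in windows of 250 bases before and 50 after each RefSeq start; using only the 250 bases changed none of the E-box and spaced pair counts of the 7 genes.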

Additional observations from a re-analysis of the deposited data

Results flagged for a closer look

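TXNIP, ARRDC4 and ARRDC3 stood out because their responses to 2DG differed between the lines in a direct test. The difference, MDA-MB-231 minus MCF10A, was -0.71 for TXNIP, -1.3525 for ARRDC4 and 0.865 for ARRDC3 (limma, adjusted p = 2.286e-09, 1.283e-10 and 2.197e-07). For TXNIP it was smaller on the dimmer probe sets, at -0.455 on 201009_s_at (adjusted p = 7.1e-05) and -0.405 on 201008_s_at (adjusted p = 0.2252, not called).

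In 3 of 28 groups of 4 arrays, 1 array lay far from the other 3 for the spread of its group, where chance marks about 1 in 20 such groups. ARRDC1 in MDA-MB-231 with 2DG was 7.07 in replicate C, and the nearest array had 7.25. ARRDC2 in MCF10A with 2DG was 8.66 in replicate D, and the nearest had 8.73. ARRDC4 in MCF10A with 2DG was 12.46 in replicate D, and the other 3 had 12.48. With those 3 tied as deposited, any other value would have been marked, so the rate of 1 in 20 does not apply there.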

How the results depend on the processing

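Over 24 alternative settings, 828 values for the 7 genes were recomputed: 6 lost the call, 11 gained one, and 8 changed sign with a call in at least 1 of the fits. The other 803 kept their side of the threshold, and 9 of these, in 4 results called in neither fit, changed sign: MLXIP in MCF10A (up to 0.0769), MLX in MCF10A (-0.0979) and for the difference (-0.0396), and ARRDC2 for the difference (up to 0.0133). Of the 24 settings, 16 left out 1 array each. A comparison that did not use the group of that array kept its estimate, so only its p-value could change. The 803 therefore include values that had little room to change. TXNIP, ARRDC2 and ARRDC4 kept every call in all settings that could be run (TXNIP has no unshared probe set), and so did ARRDC3, except on vehicle. No setting put another single TXNIP probe set in place of the brightest. On 201008_s_at alone, the TXNIP difference of responses was not called (-0.405, limma, adjusted p = 0.2252). The choice of probe set moved most. With the mean of all probe sets, ARRDC1 was 0.0075 in MDA-MB-231 and -0.0862 in MCF10A, MLXIP 0.0744 and MLX -0.1375 in MDA-MB-231, the members of the 7 called lower numbered 1 in MDA-MB-231 and 0 in MCF10A, and ARRDC4 minus TXNIP changed by -0.6508 in MDA-MB-231 and 0.1783 in MCF10A. Without shared probe sets, ARRDC1 was 0.2775 in MDA-MB-231 and 0.26 in MCF10A, and -0.1125 with 2DG and -0.13 on vehicle between the lines. MLX was then -0.1075 in MDA-MB-231, -0.1825 for the difference and -0.0475 between the lines with 2DG. The genes called lower numbered 1 in MDA-MB-231, 0 in MCF10A and 1 between the lines with 2DG and on vehicle, and those called higher with 2DG numbered 3. The cause of these changes was not tested.

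MLX in MCF10A (0.0925) passed the test with a trended, robust eBayes, without dim genes and in an ordinary linear model (adjusted p = 0.03062, 0.03492 and 0.0358). Centring each array on its median gave ARRDC1 a called difference of 0.2075 and 2 genes called higher for the difference. With the arrays of the compared groups only, MLXIP in MDA-MB-231 (-0.1525) was not called (adjusted p = 0.0588), which left 1 gene lower. Same-lettered samples showed no correlation above 0.1 (24 correlations between -0.0992 and 0.0877, 10 highest with the own letter), so the letters were not taken as pairs. Between MCF10A with 2DG and MCF10A vehicle, however, every letter was highest with its own, at 0.0852, 0.0401, 0.0706 and 0.0877 for A to D. A weak pairing in that line is therefore not excluded. The replicate block gave ARRDC1 a called difference of 0.17 (adjusted p = 0.04118) and 2 genes called higher for the difference, and it changed no other call of the 7 genes.

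Leaving out 1 array at a time gave MLXIP in MDA-MB-231 -0.1858 to -0.1058 with 1 to 2 genes called lower, MLXIP for the difference -0.1833 to -0.1033, ARRDC1 for the difference 0.14 to 0.2183 with 1 to 2 genes called higher, MLX in MCF10A 0.0775 to 0.1117 and ARRDC3 on vehicle -0.1675 to -0.0775. The deposited values hold no measure of signal over background, so probe sets near or below the median of 6.19, such as 234607_at of ARRDC1 and 2 of MLXIP, carry the least certain changes.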
